A study of Mus musculus with 13 samples.

Results

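RNA-seq profiles of old and young pancreas were compared in female mice of the i4F-B strain that had received no doxycycline. The old group held 5 mice of 55 weeks and the young group 4 mice of 13 weeks, 9 of the 13 mice profiled in the series. Every mouse, old or young, carried a doxycycline-inducible cassette of the OSKM factors (Oct4, Sox2, Klf4 and c-Myc) inserted in the Pparg gene, so all comparisons are within this genotype. The remaining 4 were mice of 58 weeks, given doxycycline for 1 week and left to recover for 2 weeks, and they entered the estimate of the spread and the mean by which genes were set apart, but no difference. The 9 mice were taken by their labelled condition. All 23366 genes of the table were compared, with emphasis on the 8410 genes (36%) whose mean over the 13 mice was above 0 on the log2 RPKM scale (RPKM is a read density, scaled for transcript length and sequencing depth). Each mouse gave 1 library of rRNA-depleted RNA from pancreas. The study's methods give 1 common read number for all samples, but read counts per library and gene were not used here, so the counting error behind each value is unknown. Litter and housing are not given in the sources used here, and a difference of cohort and one of age cannot be told apart.

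The pancreas is mostly acinar tissue, whose cells make and store digestive proenzymes in zymogen granules and release them on acetylcholine and cholecystokinin. Islets of endocrine cells, bicarbonate-secreting ducts, vessels, resident immune cells and a thin stroma lie among the acini. The stroma is made by fibroblasts and stellate cells, which deposit collagens. All 25 measured acinar markers had a mean above 0, and their summed level was 19100 to 20100 RPKM in old and 19400 to 19800 RPKM in young mice. Sums of the most abundant genes are largely fixed by the quantile normalization of these values, so they could differ little between mice. The summed level of 12 beta cell markers was 154 to 356 RPKM in old and 135 to 279 RPKM in young mice. In bulk tissue, fewer cells of a type and less RNA per cell cannot be told apart.

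Some libraries stood apart. Young mouse 3 held hepatocyte transcripts. The mean of 15 hepatocyte markers was 2.25 (log2 RPKM) in it and −0.51 in old mouse 4, against −2.51 to −2.40 in the other young mice and −2.40 to −2.22 in the other old mice. Young mouse 4 correlated less well with the other 8 mice (Pearson's r across genes of 0.951 to 0.976) than most of these did among themselves (0.971 to 0.987). It lay alone at 20.9 on a first principal component that held 31.2% of the variance, with the others between −10.8 and 7.22. Young mice 2 and 4 differed from the others in circadian clock genes. Results that rest on these mice are given with and without them.

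Few genes differed. Calls required more than 1.5-fold and a raw p under 0.01 in limma, which was the case for 207 of 23366 genes (0.886%) and for 32 of the 8410 genes of mean above 0 (0.38%). Of these 32, 21 were higher in old pancreas (0.25% of the 8410) and 11 lower (0.131%). At an adjusted p under 0.05 (Benjamini-Hochberg, over all genes), 19 genes passed (0.0813%), of which 6 had a mean above 0. In 27 of the 32 called genes the old and young values did not overlap, against 4.1% of all genes of mean above 0. The calls were made on these same values, so this adds no support to them. The median standard error (SE) of a difference was 0.101 on the log2 scale for genes of mean above 0 and 0.165 for the rest. For 7466 of the 8410 genes (88.8%) the whole 95% interval of the difference lay within 1.5-fold. The median difference over the genes of mean above 0 was 0.0073. Counts in the gene lists below stand against 0.886% called over all genes, and 3% higher and 2.52% lower at a raw p under 0.05.

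**Figure D1:**
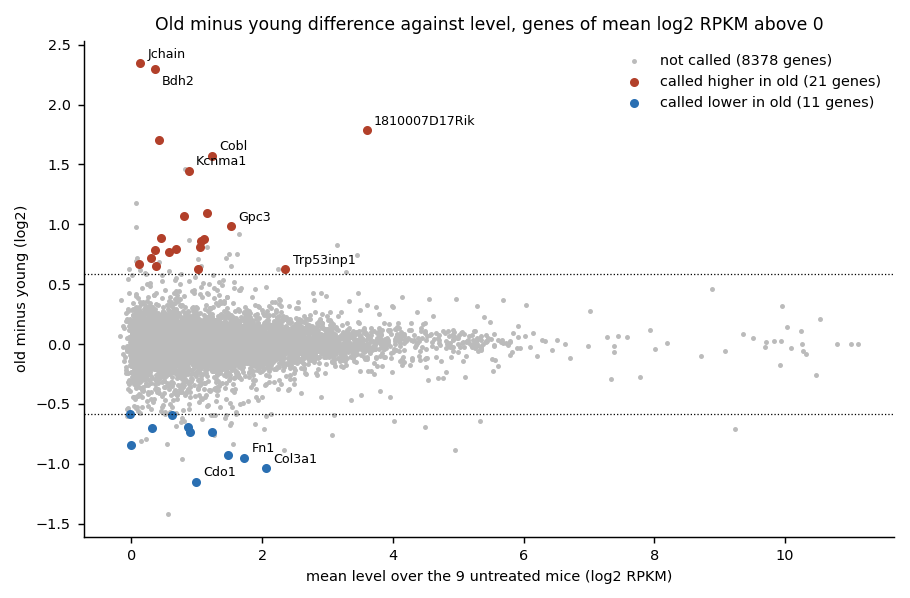
Old minus young difference (log2, vertical axis) against the mean level over the 9 untreated mice (log2 RPKM, horizontal axis), with 1 point per gene of mean above 0; dotted lines mark a 1.5-fold difference. Of the 21 genes called higher (red) and 11 called lower (blue) in old pancreas, 1810007D17Rik was the most abundant, with a mean of 3.76 over the 13 mice. No abundant enzyme gene was called, and quantile normalization leaves the top ranks little room to differ.

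The smallest p among genes of mean above 0 was that of 1810007D17Rik, a long noncoding RNA gene. Its level was 4.45, 4.4, 4.51, 4.35 and 4.26 (log2 RPKM) in the 5 old mice and 2.53, 2.59, 2.96 and 2.35 in the 4 young mice. Every old mouse was far above every young mouse, a difference of 1.79 (SE 0.14, 3.45-fold, limma adjusted p = 0.00056). In RefSeq on GRCm38.p6, the assembly also called mm10, the gene lies at chr19:58606329-58629753, 40.6 kb before Pnlip, the gene of pancreatic lipase. Its neighbours in the lipase cluster had smaller differences. Pnlip stood at −0.26 (old minus young), Pnliprp1 at 0.05 and Pnliprp2, another lipase-related gene, at 0.06, and none of them was called. The RNA 1810018F18Rik, 69.2 kb downstream, stood at −0.16 (SE 0.09). On the other side, Gfra1, a receptor subunit for the growth factor GDNF, stood at −0.81 (SE 0.29) and was not called. The promoter of 1810007D17Rik is shown because this gene had the smallest p of those with a mean above 0. The 250 bases before the annotated start (chr19:58606079-58606328, plus strand, RefSeq GRCm38.p6) hold TATAAA 64 bases and CCAAT 37 bases before the start, both on the minus strand and so read here as TTTATA and ATTGG, in capitals:
1810007D17Rik: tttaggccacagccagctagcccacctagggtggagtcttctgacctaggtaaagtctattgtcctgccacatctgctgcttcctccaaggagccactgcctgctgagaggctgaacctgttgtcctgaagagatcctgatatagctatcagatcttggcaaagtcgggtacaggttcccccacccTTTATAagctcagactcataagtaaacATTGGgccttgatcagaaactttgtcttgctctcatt
Searched on either strand, TATAAA was in 13% and CCAAT in 34.5% of 27025 promoters of the same length, and a match is a description of the letters only.

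Of the other genes of mean above 0, 4 were called higher with an adjusted p under 0.05. Cobl codes for an actin nucleator of apical microvilli. Its level was 2.09, 2.04, 2.16, 1.81 and 1.58 in old mice and 0.32, 0.41, 0.55 and 0.16 in young mice, so that the groups lay far apart (difference 1.57, SE 0.14, limma adjusted p = 0.00101). Kcnma1, the pore-forming subunit of the calcium-activated BK potassium channel, was at 1.59, 1.23, 1.67, 1.71 and 1.41 in old and 0.23, −0.18, 0.19 and 0.06 in young mice (difference 1.45, SE 0.19, limma adjusted p = 0.0203). The gene of an auxiliary subunit of this channel, Kcnmb2, was also called higher, at a lower level. It ran from −1.1 to −0.33 in old and from −2.42 to −1.42 in young mice, without overlap (difference 0.98, SE 0.22, limma adjusted p = 0.214). Gpc3, a cell-surface glypican on the X chromosome, was at 1.78, 2.02, 2.16, 1.86 and 2.0 in old and 0.68, 0.77, 1.14 and 1.34 in young mice (difference 0.98, SE 0.13, limma adjusted p = 0.0214). Foxred2, an oxidoreductase of the endoplasmic reticulum, was at 1.53, 1.59, 1.64, 1.06 and 1.41 in old and 0.73, 0.37, 0.69 and 0.56 in young mice (difference 0.86, SE 0.12, limma adjusted p = 0.0287). In each of these genes every old mouse was above every young mouse. Mfhas1 passed the adjusted threshold with a difference of 0.47 (SE 0.05, 1.38-fold, limma adjusted p = 0.00404) and was not called, since its fold change was too small.

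**Figure D2:**
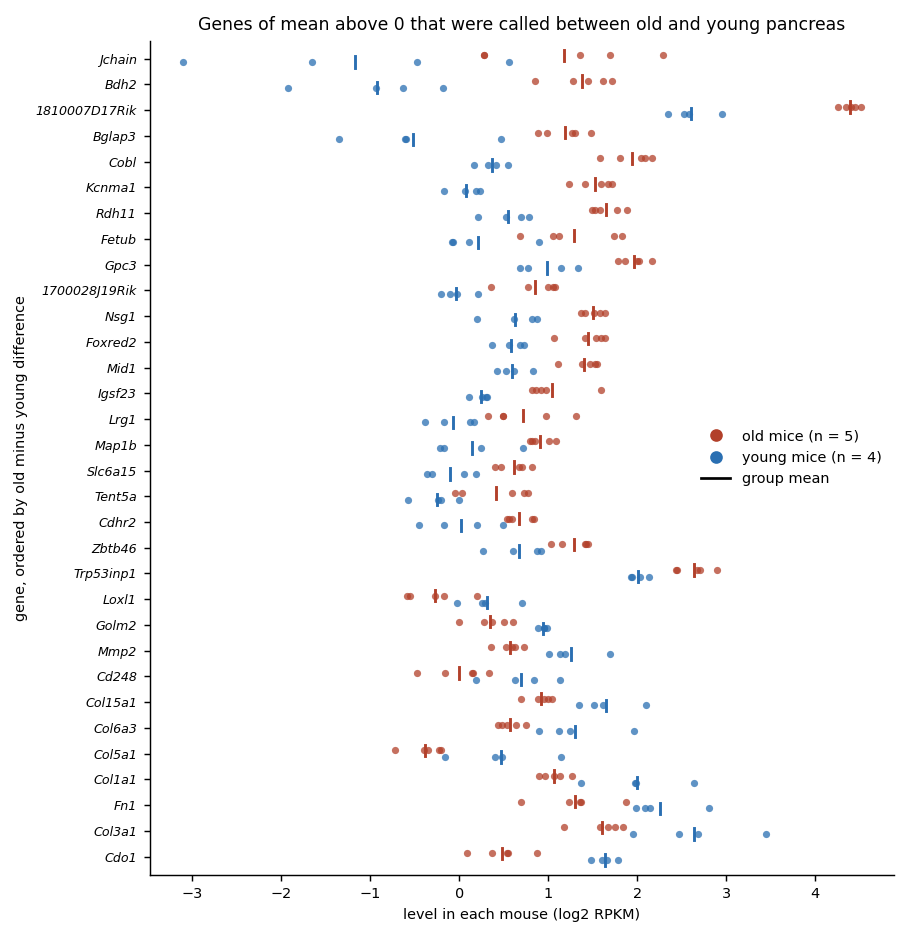
Level of each of the 32 called genes of mean above 0 in each mouse (log2 RPKM, horizontal axis), with old mice in red, young mice in blue and vertical bars at the group means; genes are ordered by their old minus young difference. The groups overlap only in Jchain, Fetub, Tent5a, Cd248 and Loxl1.

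The other 16 genes of mean above 0 called higher missed the adjusted threshold. Several code for enzymes and carriers. Bdh2, a cytosolic hydroxybutyrate dehydrogenase, was at 1.28, 1.61, 1.71, 0.85 and 1.44 in old and −0.18, −0.94, −0.64 and −1.92 in young mice (difference 2.3, SE 0.38, limma adjusted p = 0.0675). The young mice were spread more widely than the old ones, and no values overlapped. Rdh11, a retinol dehydrogenase, was 1.1 higher (SE 0.22), from 1.49 to 1.88 in old and from 0.21 to 0.78 in young mice. Slc6a15, a carrier of neutral amino acids, was 0.72 higher (SE 0.14). Trp53inp1, a target of p53 that acts in autophagy and cell death, was at 2.44, 2.68, 2.71, 2.44 and 2.9 in old and 1.94, 1.93, 2.04 and 2.13 in young mice (difference 0.62, SE 0.12, limma adjusted p = 0.131).

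Others among them were of varied kinds. Mid1, an X-linked ubiquitin ligase on microtubules, was 0.81 higher (SE 0.14), Nsg1, an endosomal protein of neurons, 0.88 higher (SE 0.17) and Map1b, a microtubule-associated protein, 0.77 higher (SE 0.18). Mid1 overlaps the gene 4933400A11Rik in the annotation, which stood at 0.66, and reads of the pair may have been shared. The lncRNA 1700028J19Rik was 0.88 higher (SE 0.15) and Bglap3, which has near-identical copies among which reads may have been split, 1.71 higher (SE 0.32). Lrg1, a secreted leucine-rich glycoprotein, was 0.79 higher (SE 0.19) and Zbtb46, a transcription factor of dendritic cells, 0.63 higher (SE 0.14). The groups did not overlap in any of these 7 genes. Of 10 nerve and Schwann cell markers, none with a mean above 0, 6 had a difference above 0 and 4 below. Their median was 0.10, or −0.0086 without young mice 2 and 4, and 1 was called lower and none higher.

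Some calls ended when 1 mouse was left out, at times with almost the same difference. Igsf23 (0.79, SE 0.23), Cdhr2, a protocadherin of the brush border (0.65, SE 0.20), Tent5a (0.67, SE 0.21) and Fetub, a fetuin made mainly by liver (1.07, SE 0.32), had limma adjusted p from 0.508 to 0.6. Fetub was at 0.90 in young mouse 3, the library with hepatocyte transcripts, against −0.08, 0.11 and −0.07 in the other young mice and 0.68 to 1.83 in old mice. The part of hepatocyte transcripts in this gene was not tested. Without young mouse 4, Zbtb46 stood at 0.49, Igsf23 at 0.75, Cdhr2 at 0.49, Tent5a at 0.67 and Fetub at 0.97, none of them called, and without old mouse 5 Trp53inp1 stood at 0.56, also not called. Igsf23 also lost its call without old mouse 5 (0.65) or young mouse 1 (0.79). Fetub lost it without old mouse 4 (0.96) or 5 (0.93) or young mouse 1 (0.97) or 2 (1.04). Cdhr2 lost it without old mouse 1 (0.61), 2 (0.67), 3 (0.61), 4 (0.68) or 5 (0.68) or young mouse 2 (0.59). Tent5a lost it without old mouse 2 (0.58), 3 (0.62) or 5 (0.59) or young mouse 1 (0.68) or 2 (0.56). Of the 21 genes called higher, 14 remained called whichever mouse was left out.

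Among genes of mean above 0, most of those called lower in old pancreas belong to the extracellular matrix. Of the 11 genes of mean above 0 called lower, 5 were collagens, 3 code for fibronectin or for enzymes that cut or crosslink the matrix, and 1 marks pericytes and fibroblasts. Collagens assemble into fibrils (types I, III and V), basement membrane sheets (type IV) or linking structures (types VI and XV). Over the whole collagen list, 11 of 24 measured members were called lower and none higher, where 102 of all 23366 genes were called lower and 105 higher. At a raw p under 0.05, 18 of the 24 were lower, where 2.52% of all genes were lower and 3% higher. A difference below 0 was seen in 23 of 24, against 10646 of all 23366 genes. The median was −0.67, against 0.0012 for all genes. The list of other matrix and remodelling genes had 4 of 33 called lower, 12 lower at a raw p under 0.05 and a median of −0.48. In it, 29 differences were below 0 and 4 above. Without young mouse 4, 1 of the 33 was called, 8 were lower at a raw p under 0.05 and the median was −0.27. Over all 23366 genes, 80 were then called lower and 498 were lower at a raw p under 0.05.

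Among the fibrillar collagens, Col3a1 was at 1.67, 1.75, 1.17, 1.58 and 1.84 in old and 2.47, 2.69, 1.96 and 3.45 in young mice. The highest old mouse was just under the lowest young mouse, and young mouse 4 was above all others (difference −1.04, SE 0.30, limma adjusted p = 0.511). Col1a1, a chain of type I collagen, was at 1.13, 0.96, 0.90, 1.06 and 1.27 in old and 1.98, 1.98, 1.37 and 2.64 in young mice (difference −0.93, SE 0.26, limma adjusted p = 0.469). Its partner Col1a2 had a difference of −0.83 (SE 0.28, limma adjusted p = 0.668) without overlap and was not called. Col5a1 was called at −0.84 (SE 0.25). Of the other types, Col15a1 was called at −0.73 (SE 0.20) and Col6a3 at −0.74 (SE 0.22). Col4a1, Col4a2, Col6a1 and Col6a2 had differences of −0.67, −0.59, −0.66 and −0.58 and were not called. At lower levels, Col5a2 (−0.76), Col5a3 (−0.62), Col6a6 (−0.70) and Col12a1 (−1.0) were called lower, and leaving out young mouse 4 ended the calls of Col5a2 (−0.56) and Col5a3 (−0.52), the latter also without old mouse 4 (−0.57) or young mouse 1 (−0.57).

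Promoters of some collagens were searched because the members of this list shared a direction. Those of Col3a1 and Col1a2 are shown, as they hold a motif. Each run is the 250 bases before the annotated start in RefSeq (GRCm38.p6, plus strand), Col3a1 at chr1:45311288-45311537 and Col1a2 at chr6:4505368-4505617. Capitals mark TATAAA, 117 bases before the start of Col3a1, and CCAAT, 109 bases before the start of Col1a2, each searched on both strands.
Col3a1: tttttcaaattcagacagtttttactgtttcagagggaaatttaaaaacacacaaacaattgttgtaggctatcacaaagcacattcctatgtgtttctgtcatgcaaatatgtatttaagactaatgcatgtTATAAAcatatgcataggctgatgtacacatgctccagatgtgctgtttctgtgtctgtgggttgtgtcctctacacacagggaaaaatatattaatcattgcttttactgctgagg
Col1a2: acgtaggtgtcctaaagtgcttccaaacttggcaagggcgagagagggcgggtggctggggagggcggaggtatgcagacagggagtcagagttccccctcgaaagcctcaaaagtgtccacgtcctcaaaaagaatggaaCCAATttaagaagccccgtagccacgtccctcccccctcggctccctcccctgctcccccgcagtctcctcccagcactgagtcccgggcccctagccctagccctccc
G or C made up 35.2% of the Col3a1 run and 62% of the Col1a2 run, and neither motif was in both. The same search of Col5a1 and Col15a1, both called lower, found neither motif, and G or C made up 76.4% and 53.6%. The runs shown thus do not stand for the list.

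Fibronectin and the remodelling enzymes had the same direction. Fn1, fibronectin, was at 1.37, 1.23, 0.70, 1.87 and 1.35 in old and 2.14, 2.08, 1.99 and 2.8 in young mice (difference −0.95, SE 0.26, limma adjusted p = 0.457). Mmp2, a gelatinase, was called at −0.69 (SE 0.19), Loxl1, a crosslinking oxidase, at −0.58 (SE 0.19) and Cd248, endosialin, at −0.70 (SE 0.21), with overlapping groups in Loxl1 and Cd248. Vcan, the proteoglycan versican, was called at −0.71 (SE 0.17) at a lower level. Sparc and Nid1, matrix glycoproteins, had differences of −0.89 (SE 0.29) and −0.68 (SE 0.26) and were not called. All 14 fibroblast and stellate cell markers had a difference below 0, with a median of −0.42, and 2 of them, Col1a1 and Col3a1, were called. Young mouse 4 was the highest mouse in 13 of them, and without it none was called and the median was −0.21. Pdgfra, a receptor on fibroblasts, was at −0.26 (SE 0.20) and Pdgfrb, a receptor on pericytes and stellate cells, at −0.40 (SE 0.18). The summed level of these 14 markers was 29.6 to 36.5 RPKM in old and 38.2 to 72.4 RPKM in young mice. This sum includes Col1a1 and Col3a1, which are also in the collagen list, so it is no separate measure of these cells. The part of these cells in the matrix differences was not tested. The 12 endothelial markers had a median of −0.27 and no call, and young mouse 4 was the highest mouse in 10 of them. Their median was −0.15 without young mouse 4 and −0.08 without young mice 3 and 4.

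**Figure D3:**
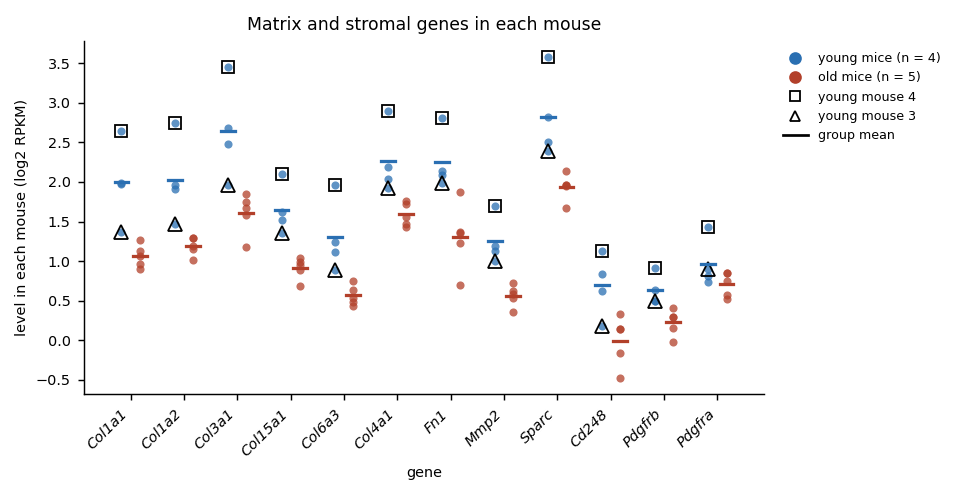
Level of 12 matrix and stromal genes in each mouse (log2 RPKM), young mice in blue and old mice in red with bars at the group means; squares mark young mouse 4 and triangles young mouse 3. Young mouse 4 is the highest of the 9 mice in each of these genes.

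These calls leaned on young mouse 4, which had the highest value of the 9 mice in 19 of 24 collagens and 29 of 33 other matrix genes, against 2830 of all 23366 genes. Without it, genes of mean above 0 called lower went from 11 to 3. Col1a1 then stood at −0.71, Col3a1 at −0.77, Fn1 at −0.77, Col15a1 at −0.58 and Mmp2 at −0.54. Col5a1 stood at −0.62, Col6a3 at −0.52, Cd248 at −0.55 and Loxl1 at −0.45, and none of these 9 genes was called. The collagen median was then −0.49, 14 of 24 were lower at a raw p under 0.05 and 4 were called, none of them with a mean above 0. Of all 23366 genes, 498 were then lower at that p and 80 were called lower.

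Leaving out young mouse 3 moved the values the other way. The collagen median was then −0.77, genes of mean above 0 called lower numbered 24, and Sparc stood at −1.03 and was called. Without young mice 3 and 4 the collagen median was −0.60. Col1a1 stood at −0.92 and Col3a1 at −0.97, both called, and Fn1 at −0.81, Mmp2 at −0.60 and Col15a1 at −0.66, not called. Some matrix calls ended without other mice too. Col3a1 lost its call without old mouse 3 (−0.93) or 4 (−1.03) or young mouse 2 (−1.02), and Mmp2 without old mouse 3 (−0.64). Col5a1 lost it without old mouse 2 (−0.84), 3 (−0.76) or 4 (−0.85) or young mouse 1 (−0.87) or 2 (−0.84), and Col6a3 without old mouse 1 (−0.71), 2 (−0.75), 3 (−0.70) or 5 (−0.73) or young mouse 1 (−0.76). Cd248 lost it without old mouse 2 (−0.66) or 3 (−0.58) or young mouse 1 (−0.65) or 2 (−0.72). Loxl1 lost it without old mouse 1 (−0.61), 2 (−0.59), 3 (−0.52) or 5 (−0.51) or young mouse 1 (−0.60) or 2 (−0.59).

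Outside the matrix, Cdo1 and Golm2 were called lower among genes of mean above 0. Cdo1, the cysteine dioxygenase that opens the route from cysteine to taurine, was at 0.88, 0.54, 0.37, 0.53 and 0.09 in old and 1.48, 1.79, 1.6 and 1.66 in young mice (difference −1.15, SE 0.20, limma adjusted p = 0.0835). It was the one gene of the 11 that remained called whichever mouse was left out. In the list of serine, one-carbon, creatine and amino acid transport genes that holds it, the median was 0.03. At a raw p under 0.05, 4 of its 30 members were lower and 1 higher, where 2.52% of all genes were lower and 3% higher. Besides Cdo1, the lower members were Slc7a11, the cystine importer (−0.56, SE 0.18), Slc38a5, a glutamine carrier (−0.44, SE 0.17), and Gatm, the first enzyme of creatine synthesis (−0.24, SE 0.08), none of which was called. Slc7a11 was called without old mouse 1 (−0.62) or young mouse 4 (−0.65). Golm2, a Golgi membrane protein, was at −0.59 (SE 0.12) and lost its call without old mouse 2 (−0.58), old mouse 4 (−0.51) or young mouse 2 (−0.58).

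The circadian clock genes set apart 2 of the young mice. In the clock, the product of Arntl (BMAL1) with its partners Clock and Npas2 drives genes such as Dbp, Tef, Per3 and Nr1d1. Arntl was at 1.44, 1.52, 1.44, 1.74 and 1.22 in the old mice and at 1.36, −0.84, 1.52 and −1.99 in young mice 1 to 4, so that young mice 2 and 4 were low. Dbp was at 0.05, −0.07, 0.12, −0.68 and 0.18 in the old mice and at −0.19, 2.47, 0.17 and 2.91 in the young mice, with young mice 2 and 4 high. Per3 was at 0.37 and 0.64 in young mice 2 and 4 and at −1.28 to −0.89 in the other 7 mice. The old minus young differences therefore had wide errors, 1.46 (SE 0.93) for Arntl, −1.42 (SE 0.91) for Dbp and −0.76 (SE 0.70) for Per3, and none was called. Npas2 was at −0.02, −0.04, 0.24, 0.03 and 0.09 in old and −0.96, −4.48, −0.79 and −3.45 in young mice. Its groups did not overlap, but it was not called either (difference 2.48, SE 0.98, limma adjusted p = 0.785). Of the 24 clock genes, 2 were higher and 1 lower at a raw p under 0.05, where 3% of all genes were higher and 2.52% lower.

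The hour at which each pancreas was taken is not given in the sources used here. Without young mice 2 and 4, the difference was 0.03 for Arntl, −0.07 for Dbp and 0.94 for Npas2, and the median over the 24 clock genes was 0.03, against −0.20 with all mice, −0.35 without young mouse 1, −0.08 without young mouse 2, −0.34 without young mouse 3 and −0.04 without young mouse 4. Of the 32 called genes of mean above 0, 14 were still called without these 2 mice, and all 32 had the same sign. 1810007D17Rik stood at 1.65, Cobl at 1.5, Kcnma1 at 1.32, Bdh2 at 1.79 and Cdo1 at −1.06, all still called. Col1a1 stood at −0.61, Col3a1 at −0.61, Fn1 at −0.76, Map1b at 0.43 and Lrg1 at 0.58, all no longer called. The collagen median was then −0.50. The part of the clock in these differences was not tested.

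**Figure D4:**
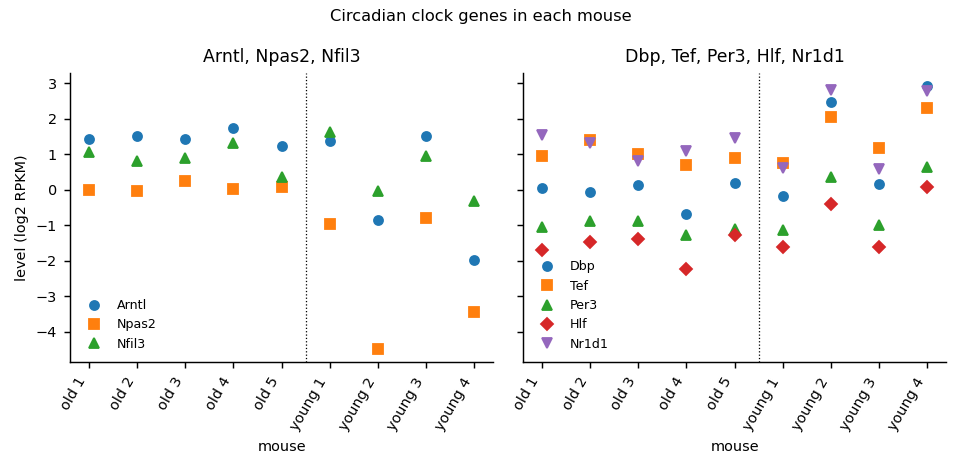
Level of 8 circadian clock genes (log2 RPKM) in each of the 5 old and 4 young mice, with a dotted line between the ages. Young mice 2 and 4 are the lowest mice in Arntl, Npas2 and Nfil3 and the highest in Dbp, Tef, Per3, Hlf and Nr1d1.

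None of the 25 acinar markers was called. An interval within 1.5-fold was seen in 22 of them, near the 88.8% of all genes of mean above 0. The values of the most abundant genes are fixed by rank, since quantile normalization gives the gene at each rank nearly the same value in every mouse. Ctrb1, a chymotrypsinogen, Cela2a, an elastase, and Amy2a5, an amylase, held the top ranks in all 9 mice at 11.11, 11.00 and 10.80, so that no difference between mice could appear. Prss2, a trypsinogen, stood at 10.62 in all 5 old mice and at 10.38 to 10.42 in young mice, and Pnlip at 10.24 to 10.42 in old and 10.62 in all 4 young mice. These genes exchanged ranks between the ages, and their differences of 0.21 and −0.26 are steps between ranks. Sycn, a syncollin of zymogen granules, was at 9.06, 9.23, 9.23, 8.83 and 9.06 in old and 8.56, 8.56, 8.83 and 8.56 in young mice (difference 0.46, SE 0.17, limma adjusted p = 0.704), and was not called.

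Of 20 genes of zymogen granules and of stimulus and secretion, 1 was called, where 0.886% of all genes were. Chrm1, a muscarinic acetylcholine receptor, was at −0.01, 0.15, 0.26, −0.05 and −0.18 in old and −0.52, −0.50, −0.89 and −1.24 in young mice, without overlap (difference 0.82, SE 0.17, limma adjusted p = 0.147). Chrm3, the main muscarinic receptor of acini, had a difference of 0.20 (SE 0.08), also without overlap and with its interval within 1.5-fold. Among 13 acinar transcription factors none was called. The one with a raw p under 0.05 was Nr0b2, a nuclear receptor without a DNA-binding domain (0.56, SE 0.18), which was called without old mouse 1, at 0.60. Of the Reg genes, which code for secreted proteins that rise in pancreatic injury, none was called. Reg2 was at 5.38, 5.0, 4.66, 8.05 and 7.79 in old and 7.57, 5.54, 4.6 and 5.67 in young mice. Old mice 4 and 5 and young mouse 1 stood far above the other mice, and the difference was 0.33 (SE 0.96).

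The islet and duct genes gave no call. Ins2, an insulin gene, was 6.64 to 7.93 in old and 6.49 to 7.49 in young mice (difference 0.28, SE 0.47), Ins1 had a difference of 0.32 (SE 0.51) and Gcg, glucagon, one of 0.32 (SE 0.50). Their 95% intervals were wide, from −0.74 to 1.3 for Ins2, −0.80 to 1.43 for Ins1 and −0.78 to 1.41 for Gcg on the log2 scale. Of 12 beta cell markers, 10 had a difference above 0, with a median of 0.26, and list means ran from 1.31 to 2.18 in old and from 1.12 to 2.06 in young mice. This median was 0.11 without old mouse 3, 0.16 without young mouse 2, 0.44 without young mouse 3 and 0.08 without young mice 2 and 4. Pcsk1, a prohormone convertase, was the 1 marker with a raw p under 0.05 (0.36, SE 0.16, limma adjusted p = 0.882). Of 14 duct markers, 13 had a difference below 0, with a median of −0.09, and 9 of the 11 with a mean above 0 were within 1.5-fold. Slc4a4, a bicarbonate cotransporter, was at −0.49 (SE 0.15) and not called.

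B and T cell genes were mostly low. Jchain, which joins the chains of secreted antibodies, was at 2.29, 1.69, 1.36, 0.28 and 0.27 in old and −0.48, −3.1, 0.56 and −1.65 in young mice (difference 2.35, SE 0.71, limma adjusted p = 0.551). The groups overlapped at young mouse 3, and the call was lost without old mouse 1 (2.07), 2 (2.22) or 3 (2.3) or young mouse 2 (1.7) or 4 (2.18). Of 14 B and plasma cell genes, 12 had a difference above 0, with a median of 0.58, and Jchain was the 1 called. Cd79b, a chain of the B cell receptor, was at 1.35 (SE 0.50) and was called without young mouse 1 (1.8). Of 13 T cell genes, 12 had a difference above 0, with a median of 0.54, and none was called. A mean above 0 was seen in 4 of the 14 and 1 of the 13 genes, and with a pseudocount of 1 the medians were 0.09 and 0.07. Of 14 macrophage markers, 8 had a mean above 0 and none was called. Their median was −0.19 with all mice, −0.09 without old mouse 3, −0.29 without old mouse 4, −0.28 without young mouse 3 and −0.05 without young mouse 4. Among 24 chemokines Ccl8, an attractant of monocytes, was called, at 0.65, −0.70, −0.55, 0.92 and −0.31 in old and −2.33, −1.57, −1.69 and −1.82 in young mice (difference 1.86, SE 0.56, limma adjusted p = 0.551). The call of Ccl8 ended without old mouse 1 (1.7) or 4 (1.63) or young mouse 1 (1.7), 2 (1.95), 3 (1.91) or 4 (1.87).

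**Figure D5:**
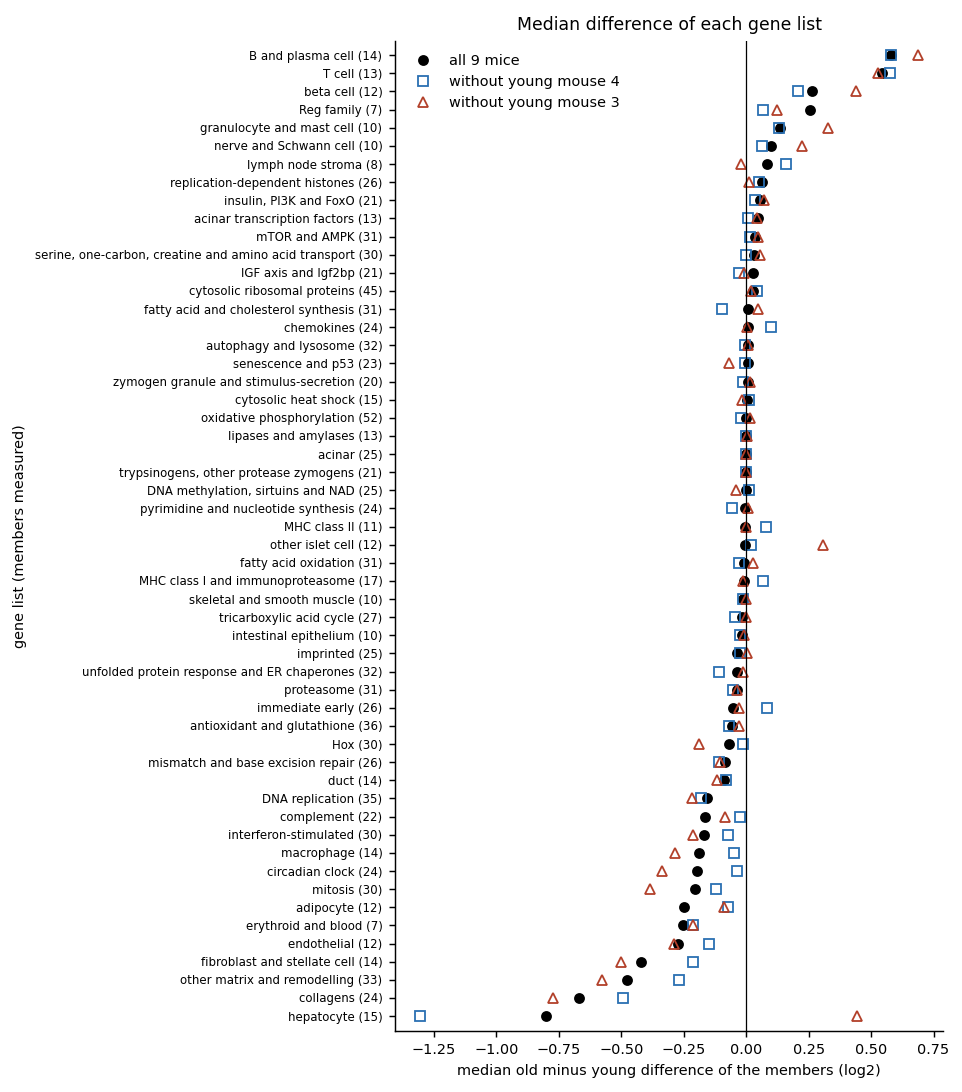
Median old minus young difference (log2, horizontal axis) of the members of each gene list with at least 7 measured genes, with the number of members in parentheses; filled points use all 9 mice, squares leave out young mouse 4 and triangles young mouse 3. The collagen list lies below 0 in each case (−0.67, −0.49 and −0.77), and the hepatocyte list moves across 0 when young mouse 3 is left out.

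Genes of basic cell machinery are read here against the 88.8% of all genes of mean above 0 that had an interval within 1.5-fold. All 52 genes of oxidative phosphorylation, which makes most ATP, had such an interval, with differences from −0.15 to 0.11. The same held for all 31 proteasome genes (−0.18 to 0.09), for 44 of 45 cytosolic ribosomal protein genes and for all 26 tricarboxylic acid cycle genes of mean above 0, as for all 16 such genes of insulin, PI3K and FoxO signalling. Autophagy and lysosome (29 of 31) and mTOR and AMPK (26 of 28) were near the share of all genes, and the unfolded protein response and ER chaperones (20 of 30) below it. Hspa5, the main ER chaperone, was at 4.91, 5.01, 4.9, 4.93 and 5.13 in old and 5.97, 4.76, 5.35 and 4.95 in young mice, with young mouse 1 the highest.

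In the DNA replication list, 27 of 35 genes had a difference below 0 (10646 of all 23366 genes), with a median of −0.16. At a raw p under 0.05, 7 were lower and none higher, where 2.52% of all genes were lower and 3% higher. The median was −0.09 without young mouse 2, and without young mouse 4 it was −0.18, with 5 genes lower at a raw p under 0.05. Without young mice 3 and 4 it was −0.25. A mean above 0 was seen in 11 of the 35 genes, and with a pseudocount of 1 the median was −0.055. Gins3, a part of the replicative helicase, was called lower at a low level (−0.63, SE 0.19), a call that ended without old mouse 1 (−0.56), 3 (−0.64) or 4 (−0.56) or young mouse 2 (−0.50) or 4 (−0.61). Mcm6 and Mcm5, subunits of the helicase ring, were at −0.62 (SE 0.23) and −0.74 (SE 0.30), and Cdc45, which joins it, at −0.83 (SE 0.36), with overlapping groups. The means of Mcm6, Mcm5 and Cdc45 were not above 0. None of 30 mitosis genes was called. Mki67, a marker of cycling cells, was at −0.41 (SE 0.51), with an interval from −1.53 to 0.70.

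Of 23 senescence and p53 genes, Trp53inp1 was the 1 called. Cdkn1a, the p21 inhibitor of cell cycle kinases, was at 1.71, 1.92, 2.0, 2.28 and 2.33 in old and 1.72, 0.62, 1.4 and 0.78 in young mice (difference 0.92, SE 0.35, limma adjusted p = 0.761). Young mouse 1 reached the old range. Cdkn2a, which codes for p16 and ARF, was at −2.71 to −2.58 in all 9 mice. Among 25 imprinted genes, 2 were called, both lower in old mice. The noncoding RNA H19 was at −3.75, −3.79, −3.22, −3.77 and −3.24 in old and −1.46, −1.27, −1.71 and −1.04 in young mice (difference −2.18, SE 0.38, limma adjusted p = 0.0796). Cdkn1c, the p57 inhibitor, was called at −0.69 (SE 0.21), a call that ended without old mouse 1 (−0.71), 2 (−0.71), 3 (−0.65) or 5 (−0.64) or young mouse 1 (−0.60) or 4 (−0.60). Dlk1, a Notch-related protein of progenitor cells, was at −0.51 (SE 0.19) and was called without old mouse 3 (−0.64). In the IGF axis, Ghr, the growth hormone receptor, was at 0.31 (SE 0.11), Igfals, a part of the circulating IGF complex, at −0.41 (SE 0.16) and Igfbp6, an IGF-binding protein, at −0.96 (SE 0.39), none of them called.

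Of the 19 genes with an adjusted p under 0.05, 13 had a mean that was not above 0, of which 8 were higher and 5 lower in old mice. Slc6a4, the serotonin transporter, was at 0.05, 0.57, 0.50, 0.02 and 0.92 in old and −1.3, −1.06, −0.86 and −1.1 in young mice (difference 1.49, SE 0.20, limma adjusted p = 0.0214). Nexmif, an X-linked gene of neurons, was 0.98 higher (SE 0.13) and Fgd6, an exchange factor for a small GTPase, 0.74 higher (SE 0.10). Tmem178b was 1.26 higher, Pkhd1l1 1.08, Nat8f3 0.87 and Tmem28 1.87, and in none of these 7 genes did the groups overlap. The genes lower in old mice lay near the bottom of the scale. Igf2bp2, an RNA-binding protein that binds Igf2 mRNA, was from −3.73 to −3.33 in old and from −2.05 to −1.58 in young mice (difference −1.64, SE 0.18, limma adjusted p = 0.00518). Pou3f4, a homeobox gene, was from −3.2 to −3.15 in old and from −2.52 to −2.37 in young mice, and Hoxd9, another, from −3.87 to −3.81 and from −3.17 to −3.1. Slc35f2 was at −1.51 and A730056A06Rik at −1.09. In Pou3f4 and Hoxd9 all 5 old mice lay within 0.1 log2 units, and in Hoxd9 all 4 young mice did too. With no counts it is unknown whether such values carry reads. Of the 175 called genes with a mean not above 0, 11 had at least 1 group of this kind, with a mean below −1.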

How the data were processed

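RNA-seq of pancreas from 13 female mice was deposited as 1 table of 23366 Entrez genes. According to the study's methods and the submitters' processing notes, the authors depleted rRNA, aligned paired reads to mm10 with STAR 2.3.0e, left out reads with many locations, estimated RPKM per isoform with Casper and summed it per gene. The deposited values are log2 RPKM, quantile normalized by the authors, and once sorted they were equal across the 13 mice to within 0.0116. A later correction of the authors for read totals is not in these values. Counts were not used here, so no interval for counting error is given.

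Symbols and coordinates came from RefSeq on GRCm38.p6 (23273 of 23366 genes matched), as did the promoters (17736 genes matched). Differences were tested with limma 3.58.1 in R 4.3.3, with 3 groups over 13 mice, no covariate and no pseudocount, 95% intervals and Benjamini-Hochberg adjustment over all genes. The script was tested on simulated data. The genes named were those called with a mean above 0, those with an adjusted p under 0.05, called members of gene lists or otherwise up to 3 of smallest p or highest mean, and the 20 most abundant. Further list members and clock genes and the genes neighbouring 1810007D17Rik were chosen after their values were seen. So were Kcnmb2, Aplnr and Pipox, called genes outside the lists. The lists held 1136 genes, of which 8 were not matched. The comparison and lists were chosen with earlier results of these data known. Replicate numbers only name the mice. Alternatives were other pseudocounts, filters, centring, variance estimates and fits, a covariate for sample identifiers below or above 630 (a split of unknown meaning), and leaving out mice.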

Additional observations from a re-analysis of the deposited data

Results flagged for a closer look

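In each group the highest or lowest mouse was set against the others by Dixon's criterion at the 95% level, for named genes and the means of cell type lists. Of 266 groups examined, 21 values stood apart (7.89%), where chance flags about 5%. The mean of the hepatocyte list was 2.25 in young mouse 3, with the other young mice at −2.51 to −2.40, and −0.51 in old mouse 4, with the other old mice at −2.40 to −2.22. Alb, serum albumin, was at 5.36 in young mouse 3. The mean of the fibroblast and stellate cell list was 1.72 in young mouse 4, against 0.91 to 1.03 in the other young mice. The granulocyte and mast cell list was at −1.90 in young mouse 3 and the mesothelial list at −2.88 in old mouse 3. Among genes higher in old mice, Fgd6 was at 0.06 and Igsf23 at 1.6 in old mouse 5, and Kcnmb2 at −2.42 in young mouse 4. Among genes lower in old mice, Slc35f2 was at −3.31 and Igf2bp2 at −3.73 in old mouse 3, and Pou3f4 at −3.20 in old mouse 2. Of the enzyme and granule genes, whose values are set by rank, Prss2 was at 10.38 and Pnliprp2 at 7.49 in young mouse 1, Cpa1 at 10.24 in young mouse 2 and Sycn at 8.83 in young mouse 3. Single values were also apart in Gatm (4.77 in young mouse 1), Mcm5 (−0.76 in young mouse 2), Cdc45 (−3.41 in old mouse 3), Dbp (−0.68 in old mouse 4) and Cdkn2a (−2.71 in old mouse 2).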

How the results depend on the processing

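All 32 called genes of mean above 0 kept their sign under every alternative run, and 13 of them (12 higher, 1 lower) remained called under all but the pseudocount of 1 and the fold change over 2. A fold change over 2 left 67 calls over all genes and 10 among genes of mean above 0. A pseudocount of 1 left 16 calls over all genes (12 higher, 4 lower) and 13 of mean above 0 (9 higher, 4 lower), and a pseudocount of 0.1 left 116 (68 higher, 48 lower), since a pseudocount shrinks differences of low genes. Calls lower in old mice among genes of mean above 0 numbered 18 with the old and young mice alone in the fit, 20 with only genes of mean above 0 fitted, 7 with a covariate for the identifier range and 6 without young mice 2 and 4. Genes with an adjusted p under 0.05 numbered 11 with only genes of mean above 0 fitted, 11 with the covariate, 10 without young mice 3 and 4 and 6 without young mice 2 and 4. The cause of these changes was not tested. With 1 mouse left out, calls ranged from 175 to 280 over all genes (85 to 126 higher, 80 to 154 lower) and from 21 to 58 for genes of mean above 0 (17 to 34 higher, 3 to 24 lower), genes with an adjusted p under 0.05 from 5 (without young mouse 1) to 26 (without young mouse 3), and genes with an interval within 1.5-fold from 7140 to 7313. The extremes of the lower calls of mean above 0 came without young mouse 4 (3) and young mouse 3 (24).

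Of the single genes under the alternatives, 1798 values kept direction and call, 194 lost the call, 24 gained it and 14 turned. Reg2 turned to −0.14, −0.08 and −0.09 without old mouse 4, old mouse 5 and young mouse 3, and to −0.38 without young mice 3 and 4, and reached 0.90 without young mouse 1. Cdkn2a turned to −0.0073 with the covariate, −0.0021 and −0.014 without young mouse 3 and 4, and −0.038 without both, and was at most 0.026, without old mouse 2. Alb turned to 0.25 with the covariate, to 1.30 without young mouse 3 and to 1.32 without young mice 3 and 4, the values without mice being called, and of the single omissions was lowest at −0.88 without young mouse 2. Without young mice 2 and 4, Per3 turned to 0.024, Tef to 0.0090 and Nfil3 to −0.40. Of the list medians, 983 moved by less than the standard deviation of the list mean between mice of a group, and 20 by more. This rule ignores the sign and is loose where mice differ widely. The hepatocyte median, −0.80 with all mice and 0.44 without young mouse 3, was among the 983, so this count does not measure stability. Leaving out young mice 3 and 4 or 2 and 4 together was chosen after seeing the data. No paired analysis was possible because replicate numbers were given in accession order and pair no mice. Read counts per library and gene were not used here, so no limit set by depth could be given.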

Other observations

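Some other called genes had a mean that was not above 0. Tet1, an enzyme of DNA demethylation, was lower in old mice (−0.68, SE 0.12, limma adjusted p = 0.0935) and was the 1 called of 25 genes of DNA methylation, sirtuins and NAD. Outside the lists, Aplnr, the apelin receptor, was lower (−1.01, SE 0.19) and Pipox, a peroxisomal sarcosine oxidase, higher (1.5, SE 0.31), each without overlap between the groups. Among 30 interferon-stimulated genes, 24 had a difference below 0, none was called and the median was −0.17, and young mouse 4 was the highest mouse in 18 of them. The median was −0.091 without old mouse 3, −0.072 without young mouse 4 and −0.050 without young mice 2 and 4. Among 22 complement genes, none was called and the median was −0.17. It was −0.069 without old mouse 3, −0.25 without young mouse 2, −0.086 without young mouse 3, −0.024 without young mouse 4 and 0.12 without young mice 3 and 4, and so had no stable sign.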
